A study of Mus musculus with 30 samples.

Results

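Matrix metalloproteinases are enzymes that cut collagen, elastin and other proteins outside the cell, and tissue inhibitors of metalloproteinases (TIMPs) block them. The 8 genes described here are the metalloproteinases Mmp8, Mmp9, Mmp12, Mmp13, Mmp14 and Mmp19 and the inhibitors Timp1 and Timp2. They were chosen by name and found by Ensembl gene ID. The count table of 32361 genes held a row for all 8, and all 8 were among the 15119 genes that passed the filter on low counts.

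Metalloproteinases are made as inactive precursors, and removal of a prodomain frees the zinc-bearing active site. In macrophages they are known for remodelling matrix, for shedding membrane-bound cytokines and growth factors and for trimming chemokines, and several of their genes are known to respond to Toll-like receptor signals. TIMP proteins bind the active site and so limit the enzymes that are at work. RNA was measured here, and neither enzyme activity nor activation of the precursors was.

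The macrophages were grown from bone marrow of C57BL/6J mice with L929 cell supernatant as the source of macrophage colony-stimulating factor, in all groups. The mice were Ticam2-/- (KO) or wild type (WT), 3 animals of each genotype. Ticam2 encodes TRAM, an adaptor that couples Toll-like receptor 4 to the interferon-inducing adaptor TRIF. Cells of each genotype received lipopolysaccharide (LPS, a Toll-like receptor 4 ligand) at 10 ng/mL for 2 h or 6 h, lipoteichoic acid (LTA, a ligand sensed chiefly by Toll-like receptor 2) at 100 ng/mL for 2 h or 6 h, or no treatment (UT). Each of the 10 groups had 3 libraries, taken here as 1 per animal. The p-values measure the spread between the libraries of a group, and the main fit did not pair libraries by animal. The sources used here give neither the part of Ticam2 that the KO allele removes nor the age of the mice.

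Ticam2 was lower in KO than in WT libraries in all 5 conditions, with 0.625 ± 0.238 CPM (counts scaled to library size after TMM normalisation, SD, n = 3) in untreated KO cells and 10.1 ± 0.927 CPM in untreated WT cells. It was 16.1-fold lower in KO in untreated cells, 13.9-fold with LPS and 22.5-fold with LTA at 6 h, but 3.09-fold with LPS and 3.51-fold with LTA at 2 h, where the KO libraries had 0.708 to 5.01 CPM with LPS and 1.67 to 3.40 CPM with LTA. The genotype difference in its 2 h response was itself called (log2 2.38 ± 0.49 for LPS, adjusted p = 1.6e-04, and 2.19 ± 0.52 for LTA, adjusted p = 0.001, edgeR's quasi-likelihood test). Depth was 10641070 to 13521660 counts in the 18 libraries of untreated and 6 h cells. It was 1334784 to 2658329 in the 12 libraries of 2 h, which form a separate, shallower set with no untreated library, so in a comparison of 2 h with untreated cells the time and the library set cannot be told apart. The sets also differed in content. Group means of the globin gene Hbb-bs were 1945 to 3584 CPM in untreated and 6 h cells and 0 at 2 h. Those of the liver gene Alb were 0 in untreated and 6 h cells and 41.1 to 54.2 CPM at 2 h. Differences between KO and WT, or between LPS and LTA, stay within a set. TMM scaling factors stood apart at 6 h in WT, averaging 0.699 (LPS) and 0.748 (LTA), while group means elsewhere were 1.004 to 1.148. Using library totals without these factors shifted the median gene (log2) by -0.19 (LPS) and -0.18 (LTA) in the 6 h responses of KO, by -0.70 and -0.60 in those of WT, and by 0.52 and 0.44 in KO over WT. The macrophage list (10 of 10 markers in the table, among them Adgre1, Csf1r and Cd68) was abundant in all libraries. In bulk RNA, fewer cells of a type and less RNA per cell cannot be told apart.

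The start regions of 3 genes are shown because these genes set KO and WT apart by the largest folds at 6 h among those with a reference window. The 250 bases before the RefSeq transcript start (GRCm38.p6) are given 5′ to 3′, with matches to 4 short motifs in capitals. The motifs, searched on both strands and not overlapping each other here, were AP-1, spelled TGANTCA, RUNX, spelled TGTGGT, Sp1, spelled GGGCGG, and TATA, spelled TATAAA.
Mmp13, chr9:7272264-7272513, plus strand: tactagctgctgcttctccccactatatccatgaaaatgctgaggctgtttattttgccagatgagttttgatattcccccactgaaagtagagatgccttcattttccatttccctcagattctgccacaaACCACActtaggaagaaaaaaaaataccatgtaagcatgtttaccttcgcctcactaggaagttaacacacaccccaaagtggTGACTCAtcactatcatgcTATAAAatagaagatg
Mmp14, chr14:54431348-54431597, plus strand: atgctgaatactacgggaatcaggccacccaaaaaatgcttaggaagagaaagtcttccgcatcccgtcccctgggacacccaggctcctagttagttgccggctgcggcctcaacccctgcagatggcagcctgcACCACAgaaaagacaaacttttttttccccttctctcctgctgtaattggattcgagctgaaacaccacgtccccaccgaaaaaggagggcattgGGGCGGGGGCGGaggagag
Timp1, chrX:20869916-20870165, plus strand: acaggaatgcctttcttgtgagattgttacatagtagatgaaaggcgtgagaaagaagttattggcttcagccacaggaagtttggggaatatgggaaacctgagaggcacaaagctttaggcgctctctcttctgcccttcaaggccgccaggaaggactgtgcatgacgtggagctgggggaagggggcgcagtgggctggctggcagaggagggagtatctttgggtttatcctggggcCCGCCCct

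In the Mmp13 window the capitals are, from left to right, a RUNX match on the minus strand, an AP-1 match 35 to 29 bases before the start and a TATA match 16 to 11 bases before it. The Mmp14 window held a RUNX match on the minus strand and 2 adjoining Sp1 matches, and the Timp1 window 1 Sp1 match on the minus strand. Over 32851 RefSeq windows of this length, 6.75% held the AP-1 letters, 14.0% RUNX, 32.7% Sp1 and 12.4% TATA. A match is a run of letters and no evidence of binding. Windows were found for 6 of the 8 genes.

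At 6 h 4 of the 6 metalloproteinase genes rose in both genotypes, and KO and WT differed in how far several of the 8 genes moved. In KO cells, LPS for 6 h raised 4 of the 8 genes (Mmp9, Mmp12, Mmp13, Mmp14) and lowered Timp2 (edgeR's quasi-likelihood test, Benjamini-Hochberg adjusted p under 0.05 over all 15119 genes), where 52.3% of all genes tested were called. LTA for 6 h, set against the same untreated libraries, raised Mmp9, Mmp12, Mmp13 and Mmp14 and lowered Timp2 in KO cells, where 52.2% of all genes were called. In WT cells, LPS raised 6 genes (Mmp8, Mmp9, Mmp12, Mmp13, Mmp14, Timp1) and lowered Mmp19 and Timp2, against 72.7% of all genes called. LTA in WT, again with shared untreated libraries, raised 6 genes (Mmp8, Mmp9, Mmp12, Mmp13, Mmp14, Timp1) and lowered Mmp19 and Timp2, against 71.3%. With library totals alone the direction of Mmp8 in both WT responses turned, to -0.27 with LPS and -0.24 with LTA (log2). The median log2 fold change of the 8 genes was 0.65 with LPS and 0.60 with LTA in KO cells and 1.25 with LPS and 1.60 with LTA in WT cells, while the medians over all genes tested lay between 0.00 and 0.03.

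**Figure D1:**
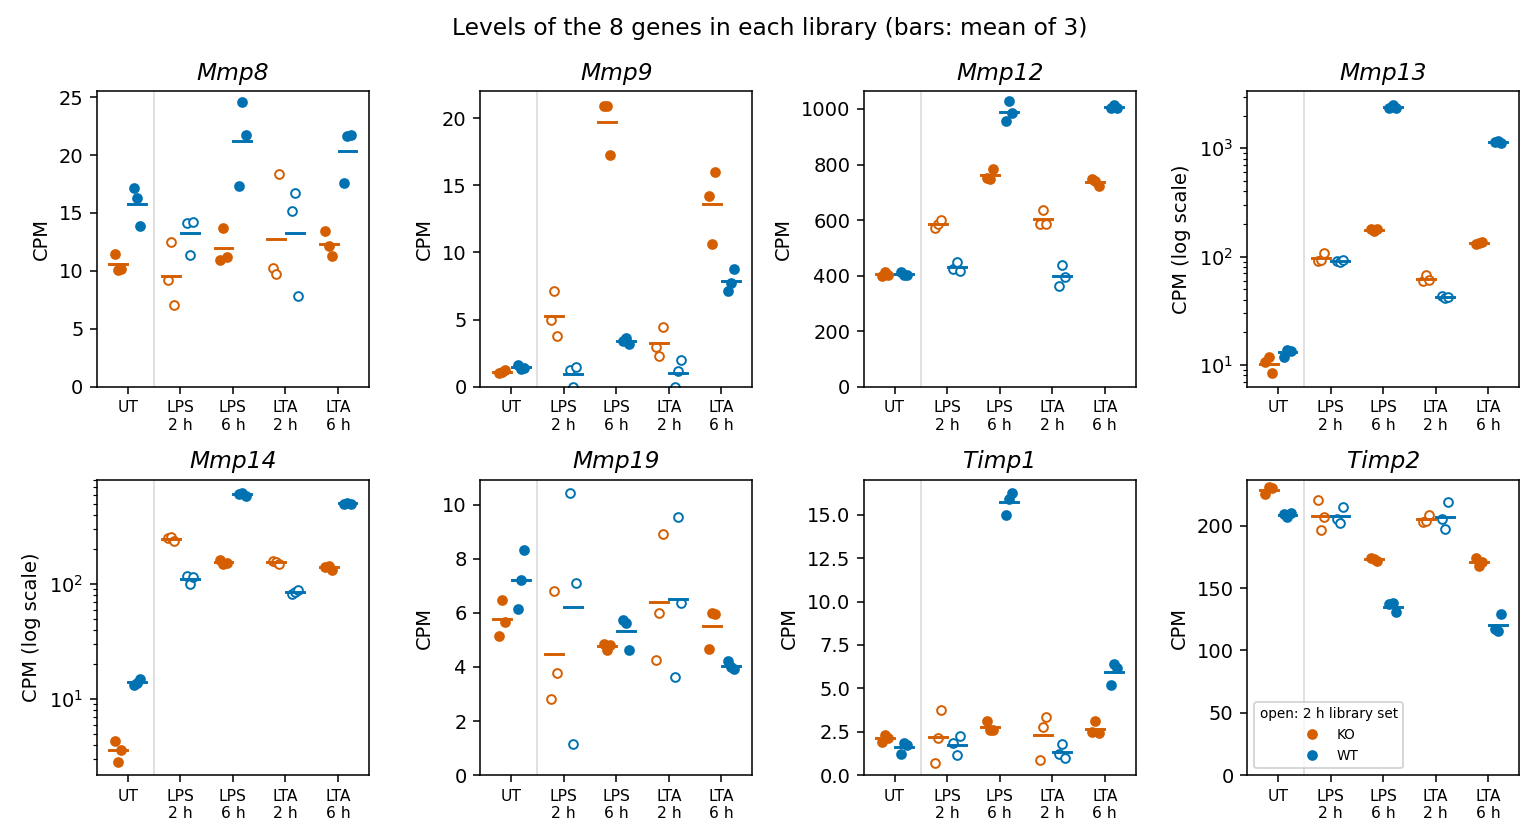
Level of each gene in each library, in CPM scaled by TMM library sizes, with KO (orange) left of WT (blue) in each condition, bars at the mean of 3 libraries and open points for the 2 h library set; the axes of Mmp13 and Mmp14 are logarithmic. Mmp13 at 6 h reaches 171 to 179 CPM in KO with LPS and 2346 to 2518 CPM in WT with LPS, and Mmp14 is higher in KO than in WT at 2 h and lower in KO at 6 h.

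Mmp13, an enzyme that cuts fibrillar collagen and the main such collagenase of mice (chromosome 9, 7272514 to 7283331, plus strand, GRCm38), had the largest difference between genotypes among the 8 genes. With LPS for 6 h its level was 179, 171 and 179 CPM in KO libraries, against 2346, 2518 and 2369 CPM in WT libraries. With LTA for 6 h it was 131, 134 and 135 CPM in KO and 1144, 1157 and 1121 CPM in WT. Every WT library lay above every KO library under both ligands. Untreated cells had 10.6, 12.0 and 8.38 CPM in KO and 11.9, 13.9 and 13.5 CPM in WT, so the untreated groups overlapped narrowly.

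The response of Mmp13 to LPS at 6 h was thus a 17.2-fold rise in KO (log2 fold change 4.10 ± 0.06, SE, n = 3 per group, adjusted p = 2.3e-48) and a 184-fold rise in WT (7.52 ± 0.06, adjusted p = 2.1e-62). With LTA the rise was 3.70 ± 0.07 in KO and 6.44 ± 0.06 in WT on the log2 scale. The genotype difference in the response, KO minus WT, was -3.42 ± 0.10 for LPS (adjusted p = 5.8e-34) and -2.74 ± 0.10 for LTA (adjusted p = 2.3e-29). KO cells at 6 h held 13.7-fold less Mmp13 than WT with LPS (log2 -3.77 ± 0.05) and 8.54-fold less with LTA (-3.09 ± 0.05). In untreated cells KO was also lower (-0.35 ± 0.09, adjusted p = 0.004), a call that was lost without KO replicate 3, the lowest library (-0.21, adjusted p = 0.235).

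At 2 h the large genotype gap in Mmp13 was not seen. LPS for 2 h gave 91.3, 93.7 and 108 CPM in KO and 91.6, 89.9 and 92.2 CPM in WT, groups that overlapped (log2 0.10 ± 0.08, adjusted p = 0.535). LTA for 2 h gave 60.0, 67.1 and 61.3 CPM in KO and 43.7, 41.8 and 42.7 CPM in WT. Here every KO library was above every WT library (0.56 ± 0.11, adjusted p = 7.7e-05), the opposite direction to 6 h. The change in the genotype difference between 2 h and 6 h, each taken within 1 library set, was -3.87 ± 0.10 for LPS and -3.65 ± 0.12 for LTA on the log2 scale (adjusted p = 2.9e-38 and 4.1e-33). The 10 groups thus ranked WT LPS 6 h, WT LTA 6 h, KO LPS 6 h, KO LTA 6 h, KO LPS 2 h, WT LPS 2 h, KO LTA 2 h, WT LTA 2 h, WT untreated and KO untreated, and the neighbours whose libraries overlapped were the 2 LPS 2 h groups and the 2 untreated groups. This order crosses the library sets, so where a 2 h group stands beside the others, time and library set cannot be told apart.

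Mmp14, a membrane-anchored enzyme that cuts collagen at the cell surface and activates the precursors of MMP2 and MMP13 (chromosome 14, 54431612 to 54445364, plus strand), followed a time course in which the genotypes changed places. Untreated KO libraries had 4.36, 2.85 and 3.62 CPM and untreated WT libraries 13.1, 13.8 and 15.0 CPM. LPS for 2 h gave 252, 259 and 235 CPM in KO and 119, 100 and 115 CPM in WT. LPS for 6 h gave 161, 151 and 154 CPM in KO and 610, 615 and 587 CPM in WT. All KO libraries were below all WT libraries in untreated cells and at 6 h, and above them at 2 h.

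The same order held with LTA, with 160, 156 and 149 CPM in KO and 82.5, 84.7 and 88.8 CPM in WT at 2 h. At 6 h of LTA the levels were 142, 144 and 134 CPM in KO and 496, 510 and 501 CPM in WT. KO over WT was a log2 fold change of -1.94 ± 0.11 in untreated cells (adjusted p = 9.0e-21). At 2 h it was 1.16 ± 0.07 under LPS and 0.86 ± 0.08 under LTA, and at 6 h -1.96 ± 0.04 under LPS and -1.85 ± 0.05 under LTA. Mmp14 was therefore about as far below WT after 6 h as before treatment. The 6 h response to LPS was 42.8-fold in KO and 43.3-fold in WT, and their difference on the log2 scale was -0.02 ± 0.18 (adjusted p = 0.957). For LTA the difference was 0.10 ± 0.12 (adjusted p = 0.586). Neither value shows that the responses are equal, and with library totals alone both differences were called, at 0.49 and 0.52, where the median gene moved to 0.52 and 0.45.

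From untreated to 2 h of LPS, Mmp14 gained 6.11 ± 0.08 in KO and 3.00 ± 0.08 in WT (log2), a comparison that also crosses the library sets. The genotype difference of these responses was 3.10 ± 0.13 for LPS (adjusted p = 8.3e-27) and 2.81 ± 0.13 for LTA (adjusted p = 6.4e-24). Whether the library set bears alike on KO and WT was not tested, here and in the other comparisons that span the sets, and Ticam2 moved in them too. From 2 h to 6 h the genotype difference moved by -3.12 ± 0.08 with LPS and -2.71 ± 0.09 with LTA. Markers of fibroblasts and stromal cells, which are known to express Mmp14, were also higher in the 2 h set. Their 8 genes, all in the table, summed to 58.3 to 106 CPM in KO and 55.9 to 64.3 CPM in WT with LPS for 2 h, against 3.76 to 4.20 CPM in untreated KO and 4.68 to 5.15 CPM in untreated WT. Of the 4 that were tested, Pdgfrb and Col1a2 were higher in KO than in WT with LPS at 2 h, where 16.4% of all genes were called. With LTA at 2 h 0 were called, against 13.0% of all genes. Most of the 2 h sum was the collagen gene Col1a1. At 6 h the sum differed between genotypes in the same direction as Mmp13 and Mmp14, at 10.2 to 13.2 CPM in KO and 58.5 to 61.8 CPM in WT with LPS, and 8.75 to 11.1 CPM in KO and 101 to 104 CPM in WT with LTA. Most of the 6 h sum in WT was the receptor gene Pdgfrb, with 51.0 to 52.6 CPM under LPS and 93.6 to 96.6 CPM under LTA, while Col1a1 had 3.28 to 4.64 CPM and 2.93 to 4.33 CPM there. The rise in the 2 h set was not particular to stromal genes. The liver gene Alb had group means of 0 CPM in untreated and 6 h cells and 41.1 to 54.2 CPM at 2 h. The part of the stromal markers and of Alb in the 2 h and 6 h levels was not tested.

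**Figure D2:**
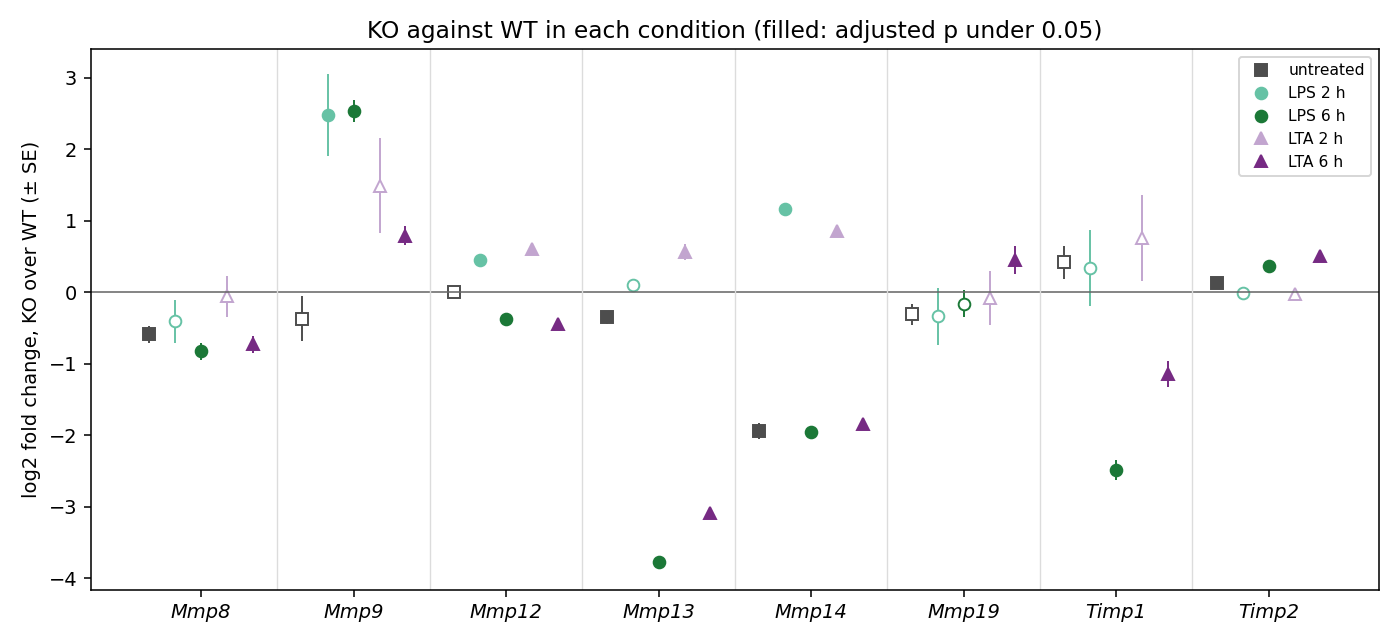
Log2 fold change of KO over WT for each gene in untreated cells and after each ligand and time, with standard errors from 3 libraries per group; filled symbols have an adjusted p under 0.05. Mmp14 sits at -1.94 untreated, 1.16 with LPS at 2 h and -1.96 with LPS at 6 h, while Mmp9 is above 0 in all 4 treated conditions, not called with LTA at 2 h; the 6 h values of Mmp12 are the ones that library totals alone move to 0.14 with LPS and -0.01 with LTA.

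Mmp9, gelatinase B, which cuts denatured collagen and basement membrane collagen (chromosome 2, 164940780 to 164955850, plus strand), went the other way from Mmp13 and rose more in KO than in WT cells at 6 h. LPS for 6 h gave 20.9, 20.9 and 17.3 CPM in KO and 3.42, 3.63 and 3.16 CPM in WT. LTA for 6 h gave 14.2, 10.6 and 16.0 CPM in KO and 7.11, 7.69 and 8.80 CPM in WT. Untreated libraries had 1.05, 1.11 and 1.21 CPM in KO and 1.64, 1.30 and 1.41 CPM in WT. No KO library fell to the level of any WT library under either ligand at 6 h.

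On the log2 scale the Mmp9 response to LPS at 6 h was 4.11 ± 0.17 in KO (adjusted p = 4.2e-28) and 1.21 ± 0.26 in WT (adjusted p = 4.9e-05). The WT value was 0.52 with library totals alone and no longer called (adjusted p = 0.072). With LTA the response was 3.58 ± 0.19 in KO and 2.42 ± 0.21 in WT. KO exceeded WT 5.76-fold with LPS (2.53 ± 0.15, adjusted p = 2.4e-21) and 1.73-fold with LTA (0.79 ± 0.13, adjusted p = 1.0e-06). The 2 genotypes also ordered the ligands differently. LPS gave more Mmp9 than LTA in KO (0.53 ± 0.10, adjusted p = 8.5e-04) and less in WT (-1.21 ± 0.19, adjusted p = 7.1e-07), and this difference was itself called (1.74 ± 0.22, adjusted p = 4.0e-09). The KO ligand difference was 0.38 without KO LTA replicate 2, the lowest of that group, and was then not called (adjusted p = 0.056).

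At 2 h Mmp9 rested on few reads. The 3 LPS libraries held 7, 20 and 7 counts in KO and 2, 0 and 4 counts in WT, and a library without a count allows up to 3 counts by counting error. KO against WT was 2.48 ± 0.57 with LPS (adjusted p = 9.6e-04) and 1.49 ± 0.66 with LTA, which was not called (adjusted p = 0.143). Mmp9 and Mmp8 are known as granule enzymes of neutrophils, so markers of that cell type were summed. The 11 of 12 neutrophil markers in the table added up to 23.1 to 26.2 CPM in KO and 60.5 to 68.2 CPM in WT with LPS for 6 h, and to 14.1 to 17.6 CPM in KO and 17.4 to 19.3 CPM in WT untreated. With LTA for 6 h the sum was 23.0 to 25.4 CPM in KO and 50.4 to 54.4 CPM in WT. Ly6g and Elane were at 0 in all 6 libraries of LPS 6 h, and Csf3r was the largest item of the sum in WT with LPS, at 31.1 to 37.5 CPM. The part of these markers in the Mmp9 differences was not tested.

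Mmp12, macrophage elastase, the elastin-cutting enzyme typical of this cell type (chromosome 9, 7344381 to 7369499, plus strand), was raised modestly by both ligands. LPS for 6 h gave 752, 747 and 783 CPM in KO and 958, 1030 and 984 CPM in WT. LTA for 6 h gave 748, 741 and 721 CPM in KO and 1003, 1015 and 1002 CPM in WT. Untreated libraries had 399, 414 and 402 CPM in KO and 414, 401 and 403 CPM in WT, with no detectable difference (log2 -0.00 ± 0.04, adjusted p = 0.972). Both 6 h groups stood above untreated cells in each genotype without overlap, by 1.88-fold in KO and 2.44-fold in WT with LPS.

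KO was below WT at 6 h by -0.38 ± 0.04 with LPS (adjusted p = 2.9e-12) and -0.45 ± 0.04 with LTA (adjusted p = 1.3e-14), but with library totals alone the values were 0.14 and -0.01, so the direction of this difference rests on the scaling. At 2 h KO was above WT, with 571, 585 and 600 CPM in KO and 425, 448 and 416 CPM in WT under LPS. LTA for 2 h gave 585, 635 and 587 CPM in KO and 362, 437 and 397 CPM in WT. The KO excess at 2 h was 0.45 ± 0.05 with LPS and 0.60 ± 0.05 with LTA (adjusted p = 1.1e-10 and 1.8e-14), with no overlap of libraries. Exons of Mmp12 overlap those of Mmp1b on the opposite strand, which has no row in the table, and the sources used here do not say whether reads were counted by strand.

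Mmp8, neutrophil collagenase (chromosome 9, 7558456 to 7568485, plus strand), was lower in KO than in WT at 6 h and in untreated cells. With LPS for 6 h the level was 10.9 to 13.7 CPM in KO and 17.3 to 24.6 CPM in WT (log2 -0.83 ± 0.12), and with LTA 11.3 to 13.4 CPM in KO and 17.6 to 21.7 CPM in WT (-0.73 ± 0.12). Untreated libraries held 11.5, 10.1 and 10.2 CPM in KO and 17.1, 16.3 and 13.9 CPM in WT (-0.59 ± 0.12, adjusted p = 3.7e-04). The genotype difference in the 6 h response was not called, at -0.25 ± 0.17 for LPS (adjusted p = 0.247) and -0.14 ± 0.17 for LTA (adjusted p = 0.562). At 2 h the libraries of the genotypes overlapped. The neutrophil sums given beside Mmp9 also differed between the genotypes at 6 h, and their part in the Mmp8 difference was not tested.

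Mmp19, a secreted metalloproteinase that cuts basement membrane proteins (chromosome 10, 128790910 to 128800824, plus strand), was called at 6 h in WT and not in KO. The genotype difference in its response was called for LTA (0.76 ± 0.25, adjusted p = 0.011) and not for LPS (0.15 ± 0.25, adjusted p = 0.643). Its level ranged from 4.62 to 6.49 CPM in KO and 3.91 to 8.31 CPM in WT over the untreated and 6 h libraries. In WT, LTA for 6 h lowered it (4.22, 4.01 and 3.91 CPM, against 6.14, 7.20 and 8.31 CPM untreated, log2 -0.82 ± 0.18, adjusted p = 8.4e-05). The WT change with LPS was -0.43 ± 0.18 (adjusted p = 0.025), and the KO values were -0.28 ± 0.17 with LPS and -0.07 ± 0.17 with LTA, neither called. KO against WT with LTA at 6 h was 0.45 ± 0.20, with an adjusted p that rounds to 0.05 and lay just under the threshold. That call and the WT LPS call were lost with DESeq2 (0.37, adjusted p = 0.119, and -0.36, adjusted p = 0.084). With single libraries left out, the KO against WT call was lost in 5 of 6 cases, at 0.36 to 0.42 in those 5. The WT LPS call was lost in 3 cases, at -0.30 to -0.43. Its exons overlap Tmem198b and Gm47093 on the opposite strand, and Tmem198b itself had 1.73 to 7.36 CPM, so reads of the pair may not be separable.

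Timp1, an inducible inhibitor of most secreted metalloproteinases (chromosome X, 20870166 to 20874735, plus strand), rose in WT cells at 6 h and was not called in KO cells. LPS for 6 h gave 3.13, 2.63 and 2.63 CPM in KO and 15.0, 15.9 and 16.2 CPM in WT. LTA for 6 h gave 2.46, 3.13 and 2.43 CPM in KO and 5.22, 6.39 and 6.19 CPM in WT. Untreated libraries had 1.94, 2.30 and 2.13 CPM in KO and 1.21, 1.84 and 1.75 CPM in WT. Every KO library at 6 h was below every WT library of the same ligand, while untreated KO libraries were slightly above WT without overlap, a difference that was not called (0.42 ± 0.23, adjusted p = 0.284).

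The Timp1 response to LPS was 0.39 ± 0.20 in KO (adjusted p = 0.106) and 3.30 ± 0.15 in WT, a 9.83-fold rise (adjusted p = 2.6e-26). With LTA it was 0.33 ± 0.21 in KO (adjusted p = 0.203) and 1.89 ± 0.19 in WT (adjusted p = 6.2e-13). The difference between genotypes in the response was -2.91 ± 0.27 for LPS (adjusted p = 1.2e-13) and -1.56 ± 0.29 for LTA (adjusted p = 8.2e-06). LPS exceeded LTA in WT by 1.40 ± 0.13 (adjusted p = 7.1e-14), and in KO by 0.06 ± 0.20, which was not called. At 2 h a library held 1 to 7 Timp1 counts, and no difference was detectable at that depth. Timp1 lies inside Syn1, on the opposite strand and with no shared exon, and Syn1 was counted at 3.54 to 9.50 CPM.

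Timp2, a constitutively made inhibitor that also takes part in the activation of MMP2 by MMP14 (chromosome 11, 118301069 to 118355740, minus strand), fell at 6 h in both genotypes. LPS for 6 h gave 174, 173 and 172 CPM in KO and 137, 138 and 131 CPM in WT, and LTA for 6 h gave 174, 168 and 171 CPM in KO and 117, 116 and 129 CPM in WT. Untreated libraries had 225, 231 and 230 CPM in KO and 209, 207 and 210 CPM in WT. The treated libraries lay below the untreated ones of their genotype in every case.

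The log2 fall of Timp2 with LPS was -0.40 ± 0.04 in KO (adjusted p = 2.3e-12) and -0.63 ± 0.04 in WT (adjusted p = 4.1e-19), and with LTA -0.42 ± 0.04 in KO and -0.79 ± 0.04 in WT. KO cells therefore kept more Timp2 at 6 h, by 0.36 ± 0.04 with LPS and 0.50 ± 0.04 with LTA (adjusted p = 2.8e-10 and 9.6e-15). The untreated KO excess of 0.13 ± 0.04 (adjusted p = 0.019) was 0.13 and not called without KO replicate 2, without KO replicate 3 or without WT replicate 2 (adjusted p = 0.080, 0.064 and 0.066). At 2 h the genotypes had 197 to 221 CPM in KO and 202 to 215 CPM in WT with LPS, and 203 to 209 CPM in KO and 197 to 219 CPM in WT with LTA, all overlapping.

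**Figure D3:**
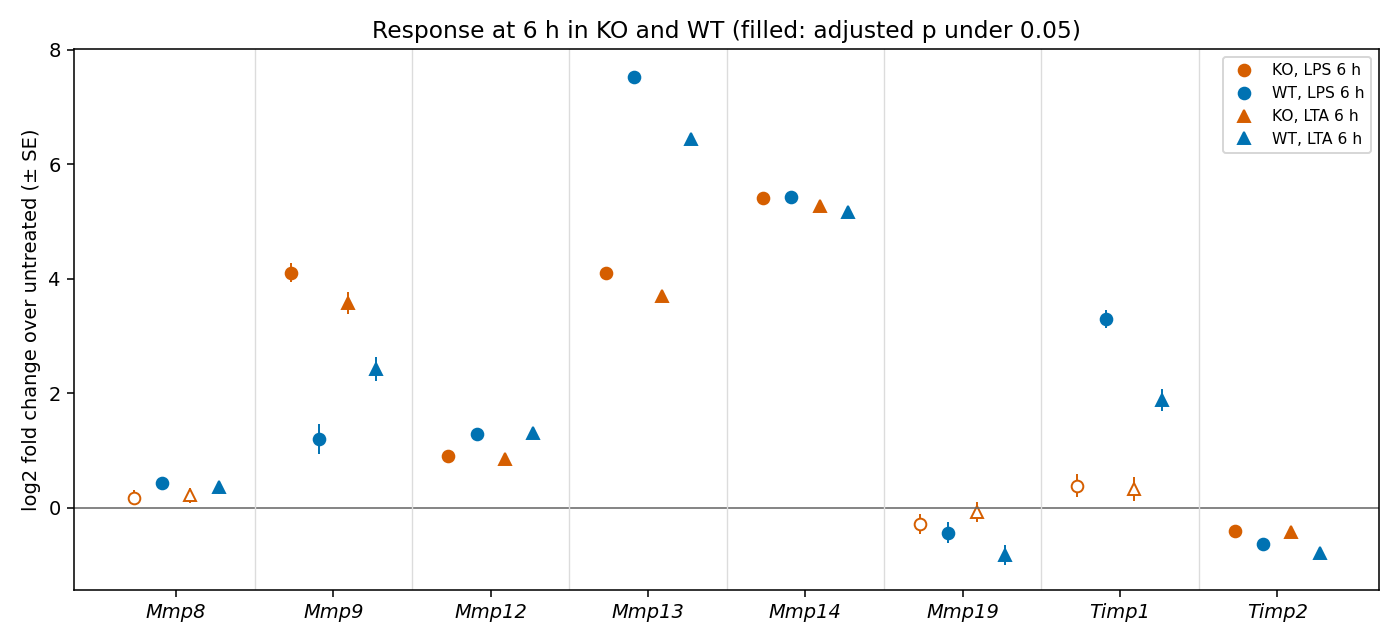
Log2 fold change at 6 h over untreated cells for each gene, KO (orange) beside WT (blue), circles for LPS and triangles for LTA, with standard errors from 3 libraries per group; filled symbols have an adjusted p under 0.05. Mmp13 rises by 4.10 in KO and 7.52 in WT with LPS, Mmp14 by 5.42 in KO and 5.44 in WT, and Mmp9 by 4.11 in KO and 1.21 in WT; with library totals alone the small WT values of Mmp8 turn to -0.27 with LPS and -0.24 with LTA.

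Counted over the 8 genes, KO against WT called 4 in untreated cells (3 lower, 1 higher in KO), where 13.4% of all genes tested were called. With LPS for 6 h 7 were called (5 lower, 2 higher), against 63.3% of all genes, and with LTA for 6 h 8 were called (5 lower, 3 higher), against 58.5%. The shares at 6 h are thus read against a background in which most genes differed. At 2 h the 3 called genes were all higher in KO, namely Mmp9, Mmp12 and Mmp14 with LPS (16.4% of all genes called) and Mmp12, Mmp13 and Mmp14 with LTA (13.0%). The median log2 fold change of the 8 genes was -0.33 in untreated cells, 0.22 (LPS) and 0.58 (LTA) at 2 h, and -0.61 (LPS) and -0.59 (LTA) at 6 h, while the medians over all genes lay between -0.00 and 0.03.

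The genotype difference in the 6 h response was called for 5 of the 8 genes with LPS (50.5% of all genes called) and for 6 with LTA (44.9%). At 2 h the difference in the response over untreated cells was called for 4 genes with LPS (17.9% of all genes) and 3 with LTA (15.4%), all in the direction of a larger KO response. Between 2 h and 6 h the genotype difference moved for 5 genes under each ligand (45.5% of all genes with LPS and 40.6% with LTA), downward for Mmp12, Mmp13, Mmp14 and Timp1 and upward for Timp2. With library totals alone the Mmp12 difference in the 6 h response turned to 0.13 with LPS.

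LPS and LTA, compared directly within a genotype and time, differed for few members outside WT at 6 h; they were given at different concentrations. In KO at 6 h Mmp9 and Mmp13 were higher with LPS (2.66% of all genes called), Mmp13 by 0.40 ± 0.05 (adjusted p = 2.4e-08). In KO at 2 h Mmp13 and Mmp14 were higher with LPS (1.40% of all genes called), by 0.64 ± 0.09 and 0.68 ± 0.06. WT at 2 h called the same 2 genes (1.20% of all genes called), at 1.10 ± 0.10 for Mmp13 and 0.39 ± 0.08 for Mmp14, the second lost without WT LPS 2 h replicate 3 (0.35, adjusted p = 0.062). In WT at 6 h 5 genes were called (31.8% of all genes called), with Mmp13 (1.08 ± 0.04), Mmp14 (0.27 ± 0.04), Timp1 and Timp2 (0.16 ± 0.05) higher and Mmp9 lower with LPS. Timp2 was 0.14 without WT LTA replicate 1 and 0.12 without WT LTA replicate 2, not called in either case, and 0.06 with library totals alone. The KO and WT ligand differences at 6 h themselves differed for 3 genes (22.7% of all genes called), Mmp9 at 1.74, Mmp13 at -0.68 ± 0.06 and Timp1 at -1.34 ± 0.24.

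In 2 h cells against untreated cells, where the library set also changes, KO called 5 members with LPS (57.2% of all genes called) and 5 with LTA (56.0%), with Mmp9, Mmp12, Mmp13 and Mmp14 higher and Timp2 lower. WT called 2 with LPS (45.0%) and 2 with LTA (43.0%), Mmp13 and Mmp14. Mmp13 gained 3.25 ± 0.09 in KO and 2.80 ± 0.09 in WT with LPS, and 2.61 ± 0.10 in KO and 1.71 ± 0.11 in WT with LTA. The KO value of Timp2 with LPS (-0.15 ± 0.05) was -0.12 and not called without KO LPS 2 h replicate 2 and -0.08 and not called when only the groups compared were fitted (adjusted p = 0.165), and that of Mmp9 with LTA (1.48 ± 0.45) was 1.21 and not called without KO LTA 2 h replicate 3.

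Other genes of the same pathways were counted from lists of related genes. Among 17 further metalloproteinase genes 6 were tested, and LPS for 6 h raised 2 of these in KO and 5 in WT, while all 6 were lower in KO than in WT with LPS at 6 h. The shares of all genes called in these comparisons, in either direction, were 52.3% in KO, 72.7% in WT and 63.3% for KO against WT, and the counts of the lists that follow are read against the same shares. A gene could pass the filter on its WT 6 h libraries alone, and Mmp2, Mmp3, Mmp10, Mmp17 and Mmp25 had their highest group means there. The counts of this list, and tests of its single genes, are thus partly set by the filter and are no independent support for a genotype difference. Low genes of the lists that follow can share this limit. Mmp25, a membrane-anchored enzyme, had 0.900 to 1.12 CPM in KO and 8.23 to 10.3 CPM in WT with LPS for 6 h. Mmp2, the gelatinase that MMP14 activates, had 0.0750 to 0.247 CPM in KO and 0.977 to 1.99 CPM in WT with LPS for 6 h. Mmp3, a stromelysin, had 0 to 0.0797 CPM in KO and 1.29 to 2.44 CPM in WT, and Mmp10, also a stromelysin, 0.494 to 0.600 CPM in KO and 1.71 to 2.34 CPM in WT. The KO levels of Mmp2 and Mmp3 lay at or below the 0.225 to 0.247 CPM that a count of 0 allows in these KO libraries.

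Of the 4 further inhibitor genes 2 were tested, and Timp3, a matrix-bound inhibitor, was lower in KO than in WT with LPS at 6 h (-1.55 ± 0.37, adjusted p = 2.4e-04). Timp3 levels were low, at 0.375 to 0.876 CPM in KO and 1.41 to 2.69 CPM in WT there. Its group means were highest in the 2 h set, at 2.048 to 3.625 CPM. In the plasminogen system and the activators of metalloproteinase precursors, 8 of 11 genes were tested, with 5 higher after LPS in KO and 6 higher and 1 lower in WT, and 6 lower and 1 higher in KO than in WT under LPS (all genes 52.3%, 72.7% and 63.3%). Serpinb2, an inhibitor of plasminogen activators, gained 4.14 ± 0.15 in KO and 7.69 ± 0.10 in WT with LPS for 6 h (log2), and Plaur, the urokinase receptor, 2.92 ± 0.05 in KO and 3.68 ± 0.05 in WT. Furin, a convertase that activates the MMP14 precursor, gained 0.62 ± 0.05 in KO and 1.65 ± 0.05 in WT.

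Among binding partners and clearance receptors, 7 of 8 were tested, with 6 higher and 1 lower after LPS in each genotype, and 5 lower and 1 higher in KO than in WT (all genes 52.3%, 72.7% and 63.3%). Lcn2, whose protein binds MMP9 in humans, gained 4.08 ± 0.10 in KO and 6.33 ± 0.08 in WT, the reverse order to Mmp9 itself. Cd44, a hyaluronan receptor that holds MMP9 at the cell surface, gained 0.85 ± 0.05 in KO and 2.25 ± 0.05 in WT. The syndecan genes Sdc4 and Sdc1 gained 1.64 ± 0.04 and 1.78 ± 0.07 in KO, and 3.84 ± 0.04 and 1.89 ± 0.06 in WT. Library totals alone moved the median gene by -0.19 in KO and -0.70 in WT in these responses. Sdc1 was not followed under that scaling, so its order of KO and WT is not settled.

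Of the ADAM sheddases and their regulators 7 of 11 were tested, with 2 higher and 3 lower after LPS in KO, 4 higher and 3 lower in WT, and 3 lower and 2 higher in KO than in WT. These counts lie near the shares of all genes in KO and in KO against WT (52.3% and 63.3%; 72.7% in WT). Adam17, which releases TNF from the cell surface, gained 0.81 ± 0.05 in KO and 0.98 ± 0.05 in WT, and Rhbdf2, which carries ADAM17 through the secretory pathway, 1.77 ± 0.05 in KO and 3.29 ± 0.05 in WT. Library totals alone moved the median gene by -0.19 in KO and -0.70 in WT in these responses. List genes were not followed under that scaling, so the order of KO and WT for Adam17 is not settled. Adam8 changed by -0.31 ± 0.04 in KO and -0.88 ± 0.04 in WT, and Adam10 by -0.26 ± 0.04 in KO and -0.44 ± 0.05 in WT. Of 9 ADAMTS proteases 4 were tested, with 2 higher and 1 lower after LPS in each genotype, and 2 lower and 1 higher in KO than in WT (all genes 52.3%, 72.7% and 63.3%). Adamts4, an aggrecan-cutting enzyme, gained 4.79 ± 0.33 in KO and 7.20 ± 0.20 in WT. Its untreated group means were 0.156 CPM in KO and 0.207 CPM in WT. They lay below the 0.213 to 0.249 CPM that a count of 0 allows in untreated libraries, so the size of these gains rests on few reads. Adamts10 went the other way, by -0.61 ± 0.11 in KO and -1.61 ± 0.16 in WT. Adamts6 had group means of 0.659 CPM in KO and 1.48 CPM in WT with LPS for 6 h, the second its highest of the 10 groups. It could pass the filter on that group alone, so its call in WT is no independent support for a genotype difference.

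The genes whose log2 CPM followed each member most closely over the 18 untreated and 6 h libraries are given as a description, since these libraries form 6 groups and the coefficient mostly reflects differences between them. For Mmp13 they were Lacc1, Cd40 and Plagl2 (Pearson r = 0.997 each). For Mmp14 they were Acod1 (0.998), Flrt3 (0.997) and Slc31a2 (0.996), and for Mmp12 Bcl2a1a (0.999), Eif4g2 and Tnfaip2 (0.998 each). Mmp9 was most like Pim2 (0.982), Dusp8 (0.974) and Fermt3 (0.973). Timp1 was most like Nub1 (0.988), Dennd1a (0.987) and Pfkp (0.985), and Timp2 most like Ezh2 (0.992), Lig1 and Rfc5 (0.990 each). Mmp8 was most like the class II genes Cd74 (0.937), H2-Ab1 and H2-Eb1 (0.922 each), and Mmp19 most like Ahcyl2 (0.873), Sfxn2 (0.856) and Dnajb11 (0.844).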

How the data were processed

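RNA of 30 libraries was analysed, 3 for each of 10 groups taken from the labels, and 0 libraries were left out. The authors deposited expected counts per Ensembl gene, not normalised, with 25.2% of the values above 0 not whole, and these were rounded to whole counts. The submitters' processing notes list STAR 2.7.11, Subread 2.1.1 with featureCounts, fastp 0.24.0 and SAMtools 1.22.1, and the builds GRCm38 and mm10. No source used here gives their roles, the library preparation or the strand setting. Levels are therefore not compared between genes, except where marker genes are summed and the largest item of a sum is named. Symbols and coordinates came from GENCODE M21 (GRCm38) by Ensembl ID.

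The model was edgeR 4.0.16 under R 4.3.3 (filterByExpr, minimum count 10 and total 15; TMM; robust quasi-likelihood, 1 coefficient per group, 20 residual degrees of freedom, 25 contrasts), with Benjamini-Hochberg adjustment within a contrast at 0.05 over 15119 genes. The biological coefficient of variation was 0.0411. On simulated data with known changes the script was checked. Alternatives were other scalings (relative log expression, library totals alone), no filter, DESeq2 1.42.0, only the groups compared, a replicate block, each library left out and, added after the data were seen, the fit without the 2 h libraries; the genotype contrasts that span 2 h were also added then. A count of 0 allows up to 3 counts, or 0.213 to 0.366 CPM in untreated and 6 h libraries and 1.07 to 2.12 CPM at 2 h, covering counting error only. All CPM values use TMM library sizes, except those of Mmp8 given as scaled by library totals alone. The members and lists were chosen with earlier results of these data known. All 8 members are described; related lists name up to 4 genes with the smallest p in WT with LPS at 6 h, and the 3 genes most like a member had a mean log2 CPM of at least 2. One gene this rule selects from those lists is not reported here.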

Additional observations from a re-analysis of the deposited data

Results flagged for a closer look

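The results below are those in which the effect of a ligand, or its course in time, differed between KO and WT by a test of the difference itself (edgeR's quasi-likelihood test, Benjamini-Hochberg adjusted p under 0.05). Values are KO minus WT on the log2 scale, and what accounts for them was not tested.

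In the response to LPS at 6 h the difference was 2.90 for Mmp9, -0.38 for Mmp12, -3.42 for Mmp13, -2.91 for Timp1 and 0.23 for Timp2. For LTA at 6 h it was 1.16 for Mmp9, -0.45 for Mmp12, -2.74 for Mmp13, 0.76 for Mmp19, -1.56 for Timp1 and 0.37 for Timp2. With library totals alone the Mmp12 values were 0.13 for LPS and -0.03 for LTA. The gap between LPS and LTA at 6 h differed by 1.74 for Mmp9, -0.68 for Mmp13 and -1.34 for Timp1.

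In the response to LPS at 2 h the difference was 2.85 for Mmp9, 0.45 for Mmp12, 0.45 for Mmp13 and 3.10 for Mmp14. For LTA at 2 h it was 0.60 for Mmp12, 0.91 for Mmp13 and 2.81 for Mmp14. The Mmp13 value for LPS was 0.31 and not called without untreated KO replicate 3.

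From 2 h to 6 h of LPS the genotype difference moved by -0.83 for Mmp12, -3.87 for Mmp13, -3.12 for Mmp14, -2.83 for Timp1 and 0.37 for Timp2. With LTA it moved by -1.05 for Mmp12, -3.65 for Mmp13, -2.71 for Mmp14, -1.91 for Timp1 and 0.52 for Timp2. The Timp1 value for LTA was -1.40 with library totals alone, and -1.71, -1.58 and -1.70 without KO LTA 2 h replicate 2, without KO LTA 2 h replicate 3 and without WT LTA 2 h replicate 3, and was called in none of these 4 cases.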

How the results depend on the processing

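Of 1534 alternative values for the 107 called gene results, 1498 kept their direction and their side of the threshold, and 89 of the 107 results changed under no alternative that gave a value. Outside the leave-one-out fits 14 of 706 values changed, and within them 22 of 828. Library totals alone turned Mmp8 in WT at 6 h over untreated (-0.27 with LPS, -0.24 with LTA), Mmp12 in KO against WT with LPS at 6 h (0.14), and the genotype difference in the 6 h LPS response of Mmp8 (0.26), Mmp12 (0.13) and Mmp14 (0.49). Without a filter on low counts the last was 0.04. In these comparisons that scaling moves the median gene by -0.70, -0.60, 0.52 and 0.50.

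Leaving out single libraries gave 2 to 4 called members in untreated KO against WT, 1 to 2 for LPS against LTA in KO at 6 h, and 1 to 2 for LPS against LTA in WT at 2 h. The Mmp14 difference in the 6 h response ranged from -0.15 to 0.13 for LPS and from -0.03 to 0.24 for LTA.

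The replicate numbers were not shown to pair the libraries within a genotype: among untreated and 6 h groups, 2 of 18 same-numbered library pairs, from 6 group pairs, had a correlation of deviations over 0.1 (median 0.01). Between KO and WT libraries of the same condition and number, 3 of 15 pairs were over 0.1 (median 0.05). The largest were 0.45 and 0.32, for replicates 1 and 3 of LPS 6 h, and what they reflect was not tested. With the replicate block the counts of called members stayed the same except for LPS against LTA in KO at 6 h, where Mmp14 was added (0.15, adjusted p = 0.042) for 3 in all. DESeq2 gave no adjusted p for Mmp9 in KO with LPS against LTA at 6 h, and Mmp9 did not pass the filter when only the LPS 2 h groups were fitted. Directions were not followed for results called under no setting. At 2 h, depth limits Mmp9, Timp1, Mmp19 and Mmp8.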
